A study of Mus musculus with 6 samples.

Results

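The genes described here are 9 genes of the red cell lineage, measured in hematopoietic stem cells (HSC) of Lig4mut and normal mice. Gata1, Klf1 and Zfpm1 encode erythroid nuclear factors, Sptb and Ank1 encode proteins of the red cell membrane skeleton, Car1 and Car2 encode carbonic anhydrases, Tfrc encodes the transferrin receptor, and Alas2 encodes the erythroid enzyme that starts haem synthesis. Every probe set whose platform annotation named exactly 1 gene, and that gene one of the 9, was taken. This gave 19 probe sets for 9 of the 18194 genes named in that way. The rule itself reads gene names and no measured value, though the genes were proposed with earlier results of these data known.

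The study compared Lig4mut HSC with wild-type (WT, Lig4+/+) HSC on 3 arrays each, to ask how a mutant allele of Lig4, the ligase of the end-joining repair of DNA double-strand breaks, bears on stem cells. Lig4mut/+ parents were intercrossed, the labels call the WT controls littermates without giving litters, and the mice were 6 to 8 weeks old. The cells were bone marrow HSC sorted as CD150+ CD48- KSL, that is, lineage-low cells with Sca-1 and Kit. The labels call the 3 samples a genotype biological replicates, name no treatment, do not describe the change in the allele, and do not say whether 1 replicate is 1 mouse or a pool. If they were not separate mice, the p-values measure the spread between these samples only.

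Red cell differentiation is driven by GATA1, which binds GATA words in DNA, by its cofactor FOG-1, the product of Zfpm1, and by KLF1, which binds CACCC boxes. The genes they switch on include those for haem synthesis, the globins, carbonic anhydrases and the spectrin and ankyrin skeleton that lets a red cell bend. Iron for haem enters through the transferrin receptor, also called CD71, which nearly all dividing cells carry to some degree. HSC lie far upstream of that programme, and part of it is present at low level in stem and progenitor cells that can still form megakaryocytes and red cells.

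Promoter sequences of Klf1, Sptb and Alas2 are shown as examples. Between them they hold, as letters, the 2 kinds of word that the factors among the 9 genes are known to bind. Each is the 250 bases before the gene's start in RefSeq, build GRCm38.p6, written 5′ to 3′ on the gene's strand. The windows are chr8:84901732-84901981 on the plus strand for Klf1, chr12:76710548-76710797 on the minus strand for Sptb, and chrX:150547167-150547416 on the plus strand for Alas2. Capitals mark a GATA word (AGATAA or TGATAA, or either with a final G in place of its last letter) or the CACCC-like word CCNCNCCC, searched on both strands.
Klf1: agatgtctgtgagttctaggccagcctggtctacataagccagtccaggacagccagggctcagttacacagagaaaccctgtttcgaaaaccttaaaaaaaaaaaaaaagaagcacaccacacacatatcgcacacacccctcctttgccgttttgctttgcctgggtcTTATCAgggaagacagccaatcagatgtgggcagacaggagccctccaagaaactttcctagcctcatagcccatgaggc
Sptb: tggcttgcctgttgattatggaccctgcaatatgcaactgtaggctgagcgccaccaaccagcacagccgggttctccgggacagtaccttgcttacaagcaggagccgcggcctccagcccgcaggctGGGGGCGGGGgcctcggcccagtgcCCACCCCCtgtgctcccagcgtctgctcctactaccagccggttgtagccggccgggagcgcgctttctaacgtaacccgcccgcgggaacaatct
Alas2: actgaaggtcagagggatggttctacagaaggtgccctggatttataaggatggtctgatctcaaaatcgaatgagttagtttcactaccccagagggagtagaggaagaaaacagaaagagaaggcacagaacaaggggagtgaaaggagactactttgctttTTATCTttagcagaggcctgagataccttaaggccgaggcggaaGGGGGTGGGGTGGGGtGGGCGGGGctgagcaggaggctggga
Klf1 held 1 GATA word, read on the opposite strand as TTATCA, whose first base lay at -80 from the start. It held no CCNCNCCC word, though the letters CACCC stand in it unmarked. Sptb held 3 CACCC-like words and no GATA word. Of these 3, 2 overlapped in GGGGGCGGGG. The word CCNCNCCC does not require the letters CACCC, and that stretch holds none on either strand. Alas2 held 1 GATA word, TTATCT on the printed strand at -86, and 4 CACCC-like words, some of them overlapping. Of all 32851 RefSeq windows of this length, 26.5% held a GATA word, 45.9% a CACCC-like word and 8.19% both, so single matches were common. The matches describe letters and not binding. Promoters of 6 of the 9 genes were available, in 7 windows. The windows not shown were those of Gata1, Zfpm1 and Tfrc. They held no GATA word and 2 to 4 CACCC-like words each.

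Levels are log2 values from mouse whole-genome Affymetrix arrays, as deposited by the authors after RMA, with a lowest value of 3. Deposited array medians were 5.97 to 6.05 in Lig4mut and 6.29 to 6.34 in WT, so the arrays were quantile normalized to 1 common distribution before testing, and values below are on that scale unless stated. A level of 1 probe set says nothing about its level against another probe set. Lig4 itself had 4.97, 3.16 and 3.10 in Lig4mut HSC, against 7.53, 6.66 and 7.63 in WT HSC, a difference of -3.53 ± 0.62 (SE, limma, adjusted p = 0.12). The 3 Lig4mut arrays lay below all 3 WT arrays. Since the labels do not describe the allele, they do not say what level to look for. Correlations between arrays over all probe sets were 0.850 to 0.866 within Lig4mut, 0.940 to 0.949 within WT and 0.866 to 0.900 between the groups, so Lig4mut arrays differed more among themselves. Xist was high in Lig4mut replicate 2 and WT replicate 3 (11.6 and 12.3), and 4.31 to 4.95 elsewhere. The labels give no sex, and each group held 1 such array.

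HSC markers were present: the mean of 10 measured genes was 8.95 to 9.54 in Lig4mut and 9.60 to 9.71 in WT. Of these 10 differences, 3 were above 0 and 7 below, with a median of -0.47. At an unadjusted p under 0.05 in limma, 0 were higher and 1, Kit, was lower (all genes 16.1% and 4.04%). Kit was lower in every Lig4mut array, with a difference of -0.95 (limma, unadjusted p = 0.0134, adjusted p = 0.177). After median centring, 0 of the HSC genes were at that unadjusted threshold. Erythroid surface genes gave a mean over 7 of 8 listed genes of 5.49 to 5.92 in Lig4mut and 5.92 to 6.12 in WT. Of these 7 differences, 3 were above 0 and 4 below, with a median of -0.17, and the groups overlapped in all. None reached an unadjusted p under 0.05 in limma. As deposited, 0 were higher and 1 lower at that p (all genes 7.26% and 5.41%). Rhag, the Rh-associated glycoprotein, was at the floor in all 3 Lig4mut arrays and in WT replicate 2. Megakaryocyte genes averaged 7.73 to 8.42 in Lig4mut and 7.74 to 8.32 in WT, with 6 of 10 differences above 0 and a median of 0.35. At an unadjusted p under 0.05 in limma, 1 was higher and 0 lower (all genes 16.1% and 4.04%). As deposited, 0 were higher and 2 lower. Granulocyte genes averaged 6.16, 10.8 and 6.81 in the Lig4mut arrays and 8.45, 7.48 and 7.65 in the WT arrays, so Lig4mut replicate 2 stood apart. Macrophage and dendritic genes averaged 7.39 to 7.94 in Lig4mut and 6.62 to 7.06 in WT, and B cell genes 6.15 to 6.97 in Lig4mut and 5.95 to 6.01 in WT. Of these, 6 of 10 and 4 of 9 genes were higher in Lig4mut at an unadjusted p under 0.05 in limma, against 16.1% of all 18194 genes. As deposited they were 5 of 10 and 3 of 9, against 7.26% of all. Endothelial genes averaged 9.16 to 10.4 in Lig4mut and 7.83 to 9.63 in WT, with 8 of 8 differences above 0, a median of 1.04 and 1 gene, Pecam1, at that p. T and NK cell genes had 7 of 7 differences above 0, a median of 0.52 and 1 gene at that p, and mast and basophil genes had 3 of 7 at that p and a median of 0.48. Of all 18194 genes, 11442 had a difference above 0. As deposited, at that p, mast and basophil genes had 1 higher and 1 lower, T and NK cell genes 0, and endothelial genes 1 higher. All genes then had 7.26% higher and 5.41% lower. The part of such cells in the results below was not tested. In sorted bulk samples, fewer cells of a type and less RNA per cell cannot be told apart.

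No probe set of the 9 genes differed between Lig4mut and WT after Benjamini-Hochberg adjustment in limma, and neither did any of the 45050 probe sets tested (0%). At an unadjusted p under 0.05 there were 6 of 19, 4 higher and 2 lower in Lig4mut, against 17.7% of all probe sets (12.1% higher and 5.56% lower). In 7 of 19 the groups did not overlap, against 23.8% of all. Lig4mut lay above WT in 6 (all probe sets 16.4%) and below in 1 (7.35%). The 6 above came from Sptb, Ank1 and Zfpm1, and the 1 below was that of Car2. Probe sets of 1 gene share their source, so these counts are of probe sets and not of genes. The 4 higher became 2 without Lig4mut replicate 3 or without WT replicate 2. The 2 lower became 1 without Lig4mut replicate 1, WT replicate 1 or WT replicate 2, and 4 without WT replicate 3.

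The count of probe sets above WT depended on the scaling. As deposited, 5 of 19 did not overlap, 2 above and 3 below, against 8.03% and 10.5% of all probe sets. At an unadjusted p under 0.05 in limma they gave 1 higher and 3 lower, against 5.19% and 7.88% of all (13.1% in both directions). Zfpm1 1423603_at and Sptb 1450556_at lay above WT, and Car2 1448752_at below, under each of the 4 scalings tried (quantile, as deposited, median-centred and cyclic loess). After quantile normalization, the differences followed level. In 10 equal bins of probe sets by mean level, the second to sixth had median differences of 0.19 to 0.26, and the top 3 bins -0.11 to -0.05. As deposited, no bin's median was above 0. The second to sixth bins then had medians of -0.06 to -0.001, and the top 3 bins -0.18 to -0.10. The positive medians of the second to sixth bins thus arose with the quantile normalization. Each probe set was therefore also set beside the median of the bin with its own level.

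**Figure D1:**
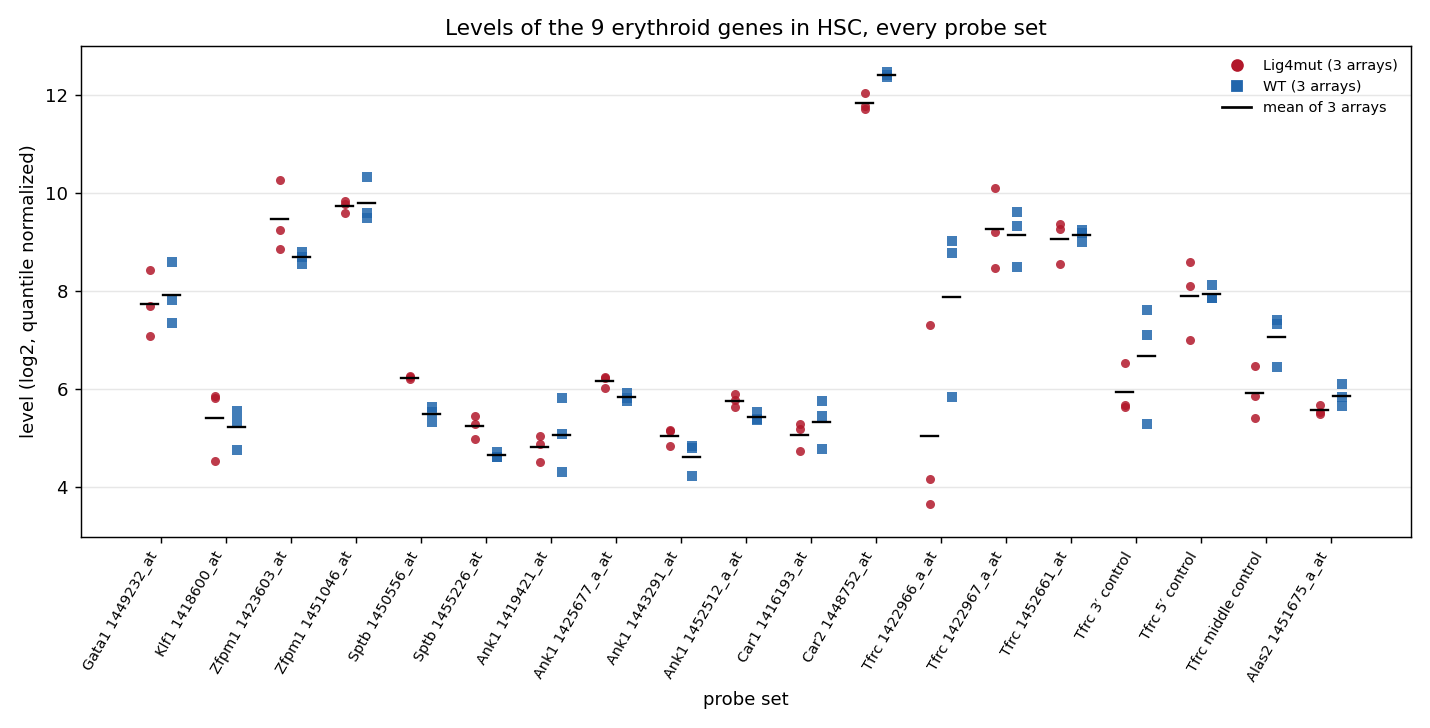
Levels of every probe set of the 9 genes (log2, quantile normalized, vertical axis) in the 3 Lig4mut arrays (red circles, left) and the 3 WT arrays (blue squares, right), with black bars for the means. Sptb 1450556_at sits at 6.22 to 6.26 in Lig4mut and 5.34 to 5.63 in WT, Car2 at 11.71 to 12.05 in Lig4mut and 12.37 to 12.46 in WT, and Gata1 points of the groups are mixed.

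The nuclear factors come first. Gata1, the factor that red cell, megakaryocyte and eosinophil development require, lies on chromosome X (7959260 to 7976663 in GRCm38.p6) and had 1 probe set. It had 7.09, 7.69 and 8.44 in Lig4mut HSC, against 8.60, 7.83 and 7.36 in WT HSC. The groups overlapped over nearly their whole range. The difference was -0.19 ± 0.49 (SE, n = 3 each), with a 95% interval of -1.44 to 1.06 (limma, adjusted p = 0.891). That interval leaves room for a large difference either way, so these arrays set only wide limits on Gata1.

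Klf1, the CACCC-box factor that turns on adult β-globin, lies on chromosome 8 (84901982 to 84905291) and had 1 probe set. It had 5.86, 5.83 and 4.54 in Lig4mut HSC, against 5.36, 5.57 and 4.77 in WT HSC. In both groups replicate 3 was the lowest, and the groups overlapped. The difference was 0.18 ± 0.45 (limma, adjusted p = 0.888), beside 0.25 for probe sets of like level, and it was -0.12 on the values as deposited.

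Zfpm1 encodes FOG-1, which joins GATA1 at many of its sites, and lies on chromosome 8 (122281856 to 122337862). Its probe set 1423603_at had 8.87, 10.27 and 9.25 in Lig4mut HSC, against 8.81, 8.70 and 8.56 in WT HSC. All Lig4mut arrays were above all WT arrays, by little in replicate 1 and by most in replicate 2, the array with high granulocyte genes. The difference was 0.77 ± 0.39 (limma, adjusted p = 0.385), and 0.37 without Lig4mut replicate 2. The other probe set, 1451046_at, had 9.59, 9.84 and 9.77 in Lig4mut, against 9.49, 9.60 and 10.32 in WT. It overlapped, with a difference of -0.07 ± 0.26. Over the 6 arrays the pair had a Pearson correlation of -0.03, so the gene's probe sets did not move together.

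Among the membrane skeleton genes, Sptb encodes β-spectrin of the red cell, which pairs with α-spectrin in the lattice under the membrane, and lies on chromosome 12 (76580488 to 76710547). Its probe set 1450556_at had 6.26, 6.22 and 6.24 in Lig4mut HSC, against 5.63, 5.54 and 5.34 in WT HSC. The 3 Lig4mut values were nearly equal and all above WT. The difference was 0.74 ± 0.11, or 1.67-fold (limma, unadjusted p = 0.00135, adjusted p = 0.112), beside a median of 0.26 for probe sets of like level. It was 0.43 as deposited, 0.53 after loess and 0.74 after median centring.

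The other Sptb probe set, 1455226_at, had 5.30, 5.46 and 4.99 in Lig4mut HSC, against 4.72, 4.62 and 4.62 in WT HSC. Here too every Lig4mut array was above every WT array. The difference was 0.59 ± 0.15 (limma, unadjusted p = 0.0115, adjusted p = 0.169), beside 0.22 for probe sets of like level, and the arrays overlapped as deposited, where it was 0.32. Neither probe set passed the adjusted threshold. The pair correlated at 0.89 over the 6 arrays, which share the genotype difference.

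Ank1 encodes ankyrin-1, which ties spectrin to the anion exchanger in the membrane, and lies on chromosome 8 (22974836 to 23150501). Probe set 1425677_a_at had 6.24, 6.04 and 6.24 in Lig4mut HSC, against 5.93, 5.76 and 5.82 in WT HSC. Probe set 1452512_a_at had 5.79, 5.63 and 5.90 in Lig4mut, against 5.39, 5.38 and 5.53 in WT. In both, Lig4mut lay above WT without overlap. The differences were 0.34 ± 0.11 for 1425677_a_at (limma, unadjusted p = 0.0305, adjusted p = 0.234) and 0.34 ± 0.12 for 1452512_a_at (limma, unadjusted p = 0.0337, adjusted p = 0.243).

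Probe set 1443291_at of Ank1 had 5.17, 4.85 and 5.15 in Lig4mut HSC, against 4.81, 4.84 and 4.24 in WT HSC. These groups were just apart, with a difference of 0.43 ± 0.22. The fourth, 1419421_at, had 5.04, 4.89 and 4.52 in Lig4mut, against 5.82, 5.08 and 4.32 in WT, and overlapped at -0.26 ± 0.42. As deposited, the groups overlapped for all 4 Ank1 probe sets, and the first pair differed by 0.02 and 0.03. After cyclic loess no Ank1 probe set was without overlap either, and that pair differed by 0.12 and 0.13 (limma, unadjusted p = 0.436 and 0.401). The 3 Ank1 probe sets lay above WT without overlap after quantile normalization and after median centring. Against probe sets of like level, which had medians of 0.22 to 0.26, the 3 higher Ank1 probe sets lay further up by 0.08 to 0.21.

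**Figure D2:**
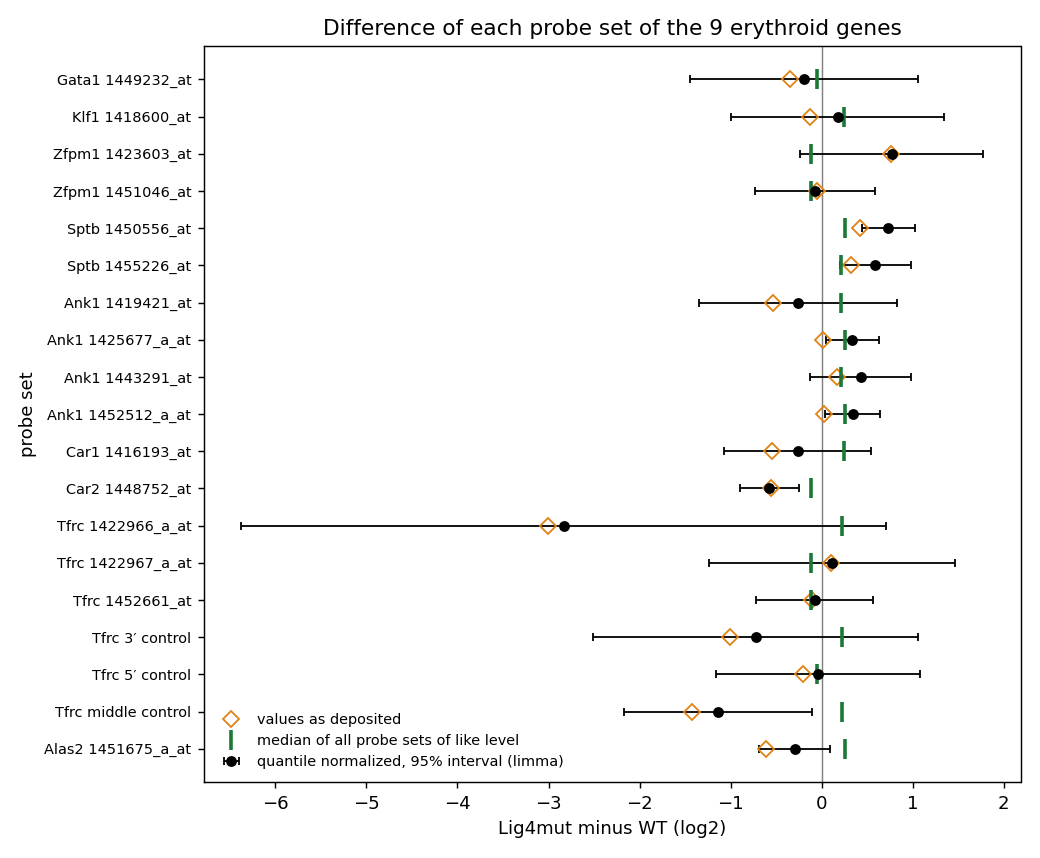
Lig4mut minus WT (log2, horizontal axis) for every probe set of the 9 genes after quantile normalization (black points, with 95% intervals from limma), as deposited (orange diamonds), and for the median of all probe sets of like level (green ticks). Sptb at 0.74 and Car2 at -0.57 keep their sign with intervals clear of 0, and the interval of Tfrc 1422966_a_at is wide.

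The carbonic anhydrases hydrate carbon dioxide and are among the most abundant enzymes of red cells. Car1 and Car2 are neighbours on chromosome 3 (14766214 to 14808365 and 14886269 to 14900770), with 77903 bases and 2 annotated genes between them, one of them Car3. Car2 had 12.05, 11.71 and 11.77 in Lig4mut HSC, against 12.37, 12.42 and 12.46 in WT HSC. The WT arrays lay close together and every Lig4mut array was below them. The difference was -0.57 ± 0.13, or 1.49-fold lower (limma, unadjusted p = 0.00642, adjusted p = 0.142), beside -0.11 for probe sets of like level. It was -0.55 as deposited, -0.48 after loess and -0.24 after median centring, without overlap in each. The difference did not reach an unadjusted p under 0.05 after median centring (limma, unadjusted p = 0.1945). Nor did it with dim probe sets left out (limma, unadjusted p = 0.0666).

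Car1 had 5.19, 5.29 and 4.73 in Lig4mut HSC, against 5.46, 4.78 and 5.76 in WT HSC. These overlapped, with a difference of -0.26 ± 0.31 (limma, adjusted p = 0.719). The signs were alike in the neighbouring genes, but the Car1 value was smaller than its error.

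Tfrc lies on chromosome 16 (32608896 to 32632794) and had 6 probe sets, of which 3 belong to the array's control series for the 5′, middle and 3′ parts of the transcript. Its probe set 1422966_a_at had 3.66, 7.30 and 4.18 in Lig4mut HSC, against 9.02, 8.78 and 5.84 in WT HSC. The values spread widely in both groups and overlapped, because Lig4mut replicate 2 was above WT replicate 3. The difference of -2.83 ± 1.38 was the largest among the 19 probe sets but did not reach an unadjusted p of 0.05 (limma, unadjusted p = 0.0949, adjusted p = 0.369), and it was -3.96 to -2.13 with 1 array left out.

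Over the 6 arrays it correlated at 0.88 with the 3′ and 0.76 with the middle control-series probe set, and at 0.24 and 0.14 with the other two probe sets outside the control series. Probe set 1422967_a_at had 8.48, 9.20 and 10.10 in Lig4mut, against 9.61, 9.33 and 8.49 in WT, a difference of 0.12 ± 0.52. Probe set 1452661_at had 9.37, 9.26 and 8.56 in Lig4mut, against 9.18, 8.99 and 9.24 in WT, a difference of -0.07 ± 0.25. Both overlapped fully, and over the 6 arrays this pair had a correlation of -0.82.

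In the control series, the middle probe set of Tfrc had 5.42, 5.87 and 6.49 in Lig4mut HSC, against 7.34, 7.41 and 6.45 in WT HSC. The groups overlapped by a small step at replicate 3, and the difference was -1.14 ± 0.40 (limma, unadjusted p = 0.0367, adjusted p = 0.25). It was lower without overlap as deposited, at -1.43, and after loess, at -1.32, again short of the adjusted threshold. The 3′ probe set had 5.68, 6.54 and 5.65 in Lig4mut, against 7.63, 7.11 and 5.29 in WT, at -0.72 ± 0.69. The 5′ probe set had 8.11, 7.01 and 8.60 in Lig4mut, against 7.86, 7.86 and 8.13 in WT, at -0.04 ± 0.44. Of the 6, 5 were lower in Lig4mut and 1 higher, with a mean difference of -0.78, and none passed the adjusted threshold.

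The 3′ minus 5′ difference of Tfrc in the control series was -2.43, -0.48 and -2.95 in the Lig4mut arrays and -0.23, -0.75 and -2.84 in the WT arrays. The same measure for Gapdh was 0.89, 0.89 and 1.17 in Lig4mut and 0.91, 0.88 and 0.85 in WT, and for Actb 0.09, -0.23 and -0.09 in Lig4mut and -0.19, -0.41 and -0.29 in WT. For pyruvate carboxylase, the other control transcript, it was -1.37, -1.28 and -1.12 in Lig4mut and -0.20, -1.34 and -1.31 in WT. The ends of Tfrc thus diverged between arrays of 1 genotype more than those of Gapdh and Actb, and pyruvate carboxylase had 1 WT array apart from the rest. The part of transcript coverage or RNA quality in the Tfrc values was not tested.

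**Figure D3:**
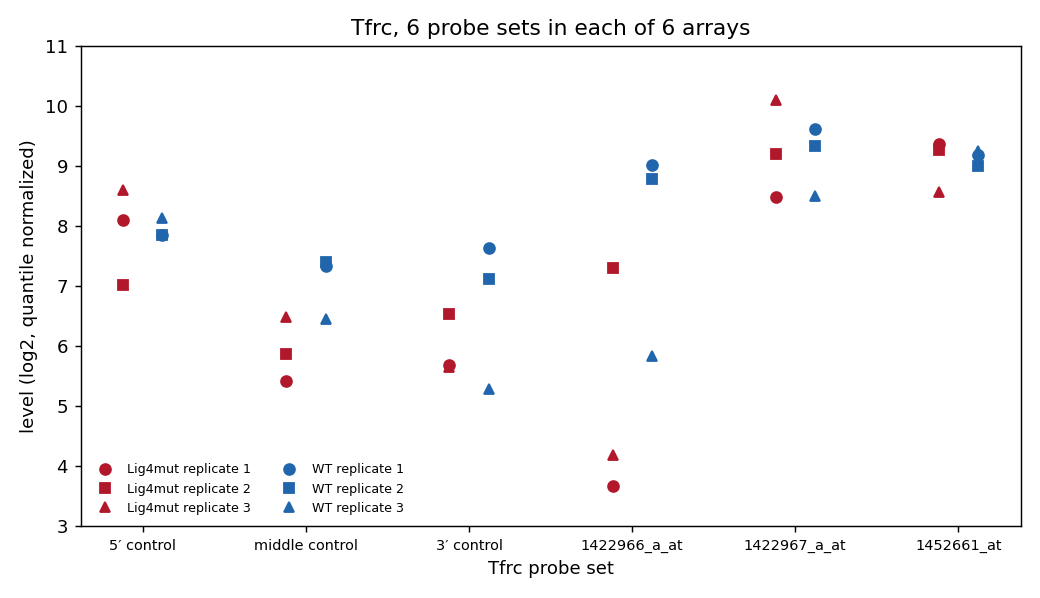
The 6 Tfrc probe sets (horizontal axis) in each array (log2 level, quantile normalized, vertical axis), Lig4mut in red on the left and WT in blue on the right, with a marker shape for each replicate number. Probe set 1422966_a_at runs from 3.66 to 9.02 over the 6 arrays, while 1452661_at stays between 8.56 and 9.37.

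Alas2, the erythroid 5-aminolevulinate synthase, lies on chromosome X (150547417 to 150570622). It had 5.51, 5.68 and 5.53 in Lig4mut HSC, against 5.66, 5.84 and 6.10 in WT HSC. The groups overlapped only in that Lig4mut replicate 2 was above WT replicate 1. The difference was -0.29 ± 0.15 (limma, unadjusted p = 0.108, adjusted p = 0.389), beside 0.26 for probe sets of like level. As deposited it was -0.61 without overlap, and after loess -0.51 without overlap, so the call of overlap for Alas2 depended on the scaling while the sign did not. With sex-linked transcripts (Y-linked genes minus Xist) as a covariate for the 2 X-linked genes, the differences were -0.30 for Alas2 and -0.18 for Gata1.

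As a whole, the 19 probe sets had a median difference of -0.07 and all probe sets 0.08. None of the 19 lay at the floor, and 5 had mean levels below the 40th percentile of all probe sets. The median SD between replicates of the 19 was 0.30 in Lig4mut and 0.34 in WT, against 0.46 and 0.30 for all probe sets.

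**Figure D4:**
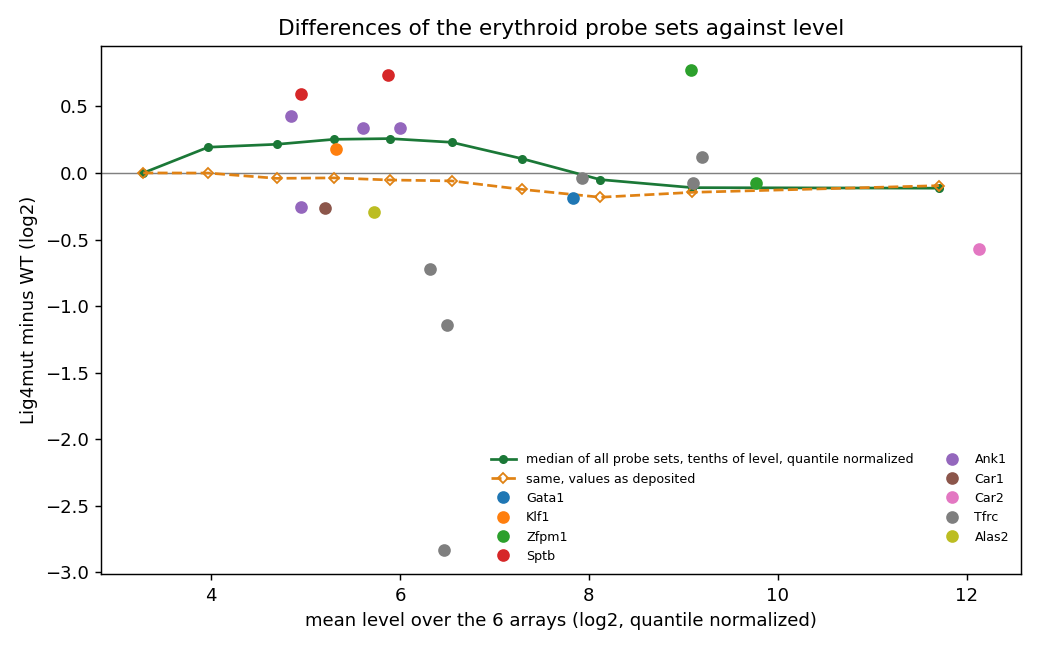
Lig4mut minus WT (log2, vertical axis) of each probe set of the 9 genes against its mean level over the 6 arrays (log2, horizontal axis), with the median of all probe sets in 10 bins of level after quantile normalization (green line) and as deposited (orange dashes). The green line lies at 0.19 to 0.26 in the second to sixth bins, where the Sptb, Ank1, Klf1, Car1 and Alas2 points lie, and at -0.11 in the top 2 bins, where Car2 lies at -0.57.

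Other genes of the erythroid programme were read by the brightest probe set of each gene, for which 16.1% of 18194 genes were higher in Lig4mut at an unadjusted p under 0.05, 4.04% lower, and the median difference was 0.18. None of the genes below passed the adjusted threshold in limma. Of 13 erythroid transcription factors, 0 were higher and 2 lower at that p, with a median of -0.19. Tal1, the SCL factor that HSC formation and red cell development need, had 7.98, 8.87 and 8.84 in Lig4mut HSC, against 9.93, 10.2 and 10.8 in WT HSC. Every Lig4mut array was below every WT array, and the difference was -1.73 ± 0.36 (limma, unadjusted p = 0.00475, adjusted p = 0.133). Bcl11a, the fetal globin repressor, differed by -0.92 (limma, unadjusted p = 0.0291), but 4 of its 7 probe sets were higher in Lig4mut. Zbtb7a, another fetal globin repressor, differed by -0.50, and Gata2, the GATA factor of stem and progenitor cells, by -0.79, neither at that p.

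Of 8 erythropoietin signalling genes none reached an unadjusted p under 0.05 in limma, and the median was 0.07. Stat5a, a signal transducer of that receptor, differed by -0.87 with overlap. Of 19 measured red cell membrane genes, 4 were higher and 1 lower, with a median of -0.03. Add2, the β-adducin that caps the spectrin and actin junctions, had 7.51, 7.76 and 7.29 in Lig4mut HSC, against 6.69, 6.51 and 6.71 in WT HSC. All its 5 probe sets were higher in Lig4mut, and the brightest differed by 0.88 ± 0.16 (limma, unadjusted p = 0.00255, adjusted p = 0.121). Dmtn, which encodes the actin-bundling dematin, differed by 0.69 ± 0.15 and Rhd, the Rh blood group protein, by 0.74. Slc14a1, the urea transporter, differed by -1.61 ± 0.41.

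The 4 higher of the 5 genes at that p were thus Add2, Dmtn, Rhd and Mpp1, and as deposited the list had 2 higher and 2 lower (all genes 7.26% and 5.41%). Of 5 ankyrin and spectrin paralogs expressed outside the red cell lineage, none reached that p in limma, with a median of 0.04. Of 14 other carbonic anhydrase genes, 4 were higher and none lower, with a median of 0.35. Those 4 were Car5a at 0.88, Car7 at 0.78, Car14 at 0.60 and Car12 at 3.21. Car12, a membrane-bound form, had 10.8, 6.18 and 7.59 in Lig4mut HSC, against 4.85, 5.26 and 4.80 in WT HSC. Its Lig4mut values spread over more than 4 log2 units and 1 of its 3 probe sets was lower.

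Of 6 measured globin genes, 2 were higher and none lower, with a median of 0.23. Embryonic Hbb-bh1 differed by 0.76 ± 0.13 and adult Hba-a1 by 0.53 ± 0.13, beside 0.26 and 0.22 for probe sets of like level. As deposited they differed by 0.45 and 0.26. The mean level of Hba-a1, 4.89, was below the 40th percentile. Hba-a2, whose sequence is nearly that of Hba-a1, had 11.15, 11.01 and 11.43 in Lig4mut HSC, against 11.53, 11.45 and 11.39 in WT HSC, and overlapped, so the α-globin copies gave opposite signs and remain uncertain. Embryonic Hbb-y differed by 0.37 with overlap. As deposited, 1 globin gene was higher at that p and the list median was -0.05.

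Of 17 haem synthesis and transport genes, 1 was higher and none lower, with a median of 0.18. That gene was Flvcr1, the haem exporter, at 0.98 ± 0.35. Of 13 iron genes, 3 were higher and none lower, with a median of 0.17. Fbxl5, the iron-sensing subunit that marks iron regulatory protein for decay, had 10.5, 11.2 and 10.8 in Lig4mut HSC, against 9.36, 9.03 and 9.58 in WT HSC. The groups were clear of each other, with a difference of 1.51 ± 0.25 (limma, unadjusted p = 0.00169, adjusted p = 0.113). Slc40a1, the iron exporter ferroportin, which macrophages also carry, differed by 2.21 ± 0.71, and Steap3, the reductase that works beside the transferrin receptor, by 1.48 ± 0.51. As deposited, at the same p, haem genes had 0 higher, iron genes 2 higher, carbonic anhydrases 3 higher and 1 lower, and transcription factors 2 lower. Relative to the median of all genes, the transcription factor median was -0.37 to -0.17 and the carbonic anhydrase median 0.05 to 0.17 over the 4 scalings. These list medians were not corrected for level. Most of the transcription factors lay in the top 2 bins of level, with medians of -0.11. There 7.44% and 7.99% of all probe sets were lower at an unadjusted p under 0.05 in limma. Most of the carbonic anhydrases lay in the second to sixth bins, with medians of 0.19 to 0.26.

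**Figure D5:**
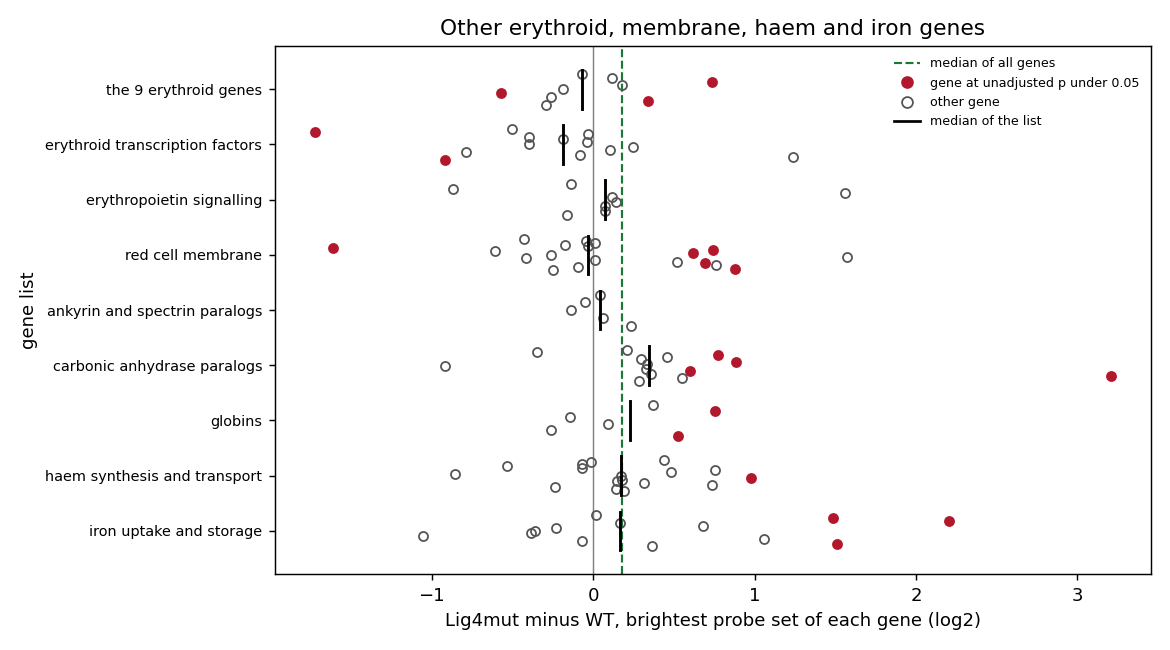
Lig4mut minus WT (log2, horizontal axis) of the brightest probe set of each gene, by gene list, with filled points for genes at an unadjusted p under 0.05, open points for other genes, black bars for list medians and a dashed line for the median of all genes at 0.18. The median of the 9 erythroid genes lies at -0.07 and that of the other carbonic anhydrases at 0.35.

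The genes whose brightest probe set was most like that of Gata1 over the 6 arrays were Bcl9, Borcs7, Zfp384, Vrk1 and Lztr1, with Pearson correlations of 0.970 to 0.986. For Sptb they were Cit, Shbg, Marco, Cend1 and Ulk4, at 0.992 to 0.997. With 6 arrays and 18194 genes such values are easily found, and they describe these arrays only. Marco, the macrophage scavenger receptor, had 6.00, 5.85 and 5.97 in Lig4mut HSC, against 5.26, 5.16 and 5.05 in WT HSC, much the same pattern as Sptb. The Marco difference was 0.78, beside 0.25 for probe sets of like level, and its level was below the 40th percentile. In the same list, H2-Ab1 differed by 2.28, H2-Aa by 1.80, Cd74 by 1.36, Siglech by 0.79 and Csf1r by 0.70, without overlap. Spic differed by 0.39, Cd68 by -0.14, Adgre1 by -0.05 and Vcam1 by 0.23, each with overlap. The part of macrophages in the Sptb values was not tested.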

How the data were processed

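Total RNA of 6 HSC samples was hybridised to Affymetrix arrays. The submitters' processing notes name RMA, with no version, as the tool behind the deposited log2 levels. Their amplification is uncertain: the design text names a whole-transcript kit and the label protocol a standard cRNA method. From the deposited log2 values, 45050 probe sets were quantile normalized, since array medians differed by 0.365, and tested with limma 3.58.1 (R 4.3.3; lmFit, eBayes; Lig4mut minus WT, 2-sided, no covariate), with Benjamini-Hochberg adjustment over all of them at 0.05. Left out were 51 control probe sets without a mouse gene. Of the table's probe sets, 34958 named 1 gene, 932 several and 9160 none, and only the first kind were named. The 9 genes, the other lists and the marker lists were chosen with earlier results of these data known. Named genes are all 9, up to 4 of smallest p in each list described, the 5 most correlated genes, and Lig4. Mpp1 and Pecam1 were chosen after their values were seen. So were the macrophage and dendritic, HSC and erythroid surface genes named in the text. The bins of level and the comparison of Tfrc probe sets were also chosen then. An exact permutation test of 3 against 3 cannot go below p = 0.1 and was not used. Precision is limited by the number of arrays. The script was tested on simulated data. Same-numbered replicates did not deviate together (correlations of 0.0487, 0.0124 and -0.0229), so no pairing was used. No reference genome was used, and coordinates are from RefSeq GRCm38.p6.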

Additional observations from a re-analysis of the deposited data

How the results depend on the processing

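The 4 probe sets higher at an unadjusted p under 0.05 became 1 as deposited, after cyclic loess, with dim probe sets left out and with the mean of each gene's probe sets. They became 2 with the replicate block (replicate number as a block), with limma's trend and robust options, with 1 probe set a gene, and without probe sets whose suffix marks shared sequence. The 2 lower became 1 after median centring, with dim probe sets left out, with the replicate block, with 1 probe set a gene, with the mean of probe sets and without the control series, an alternative chosen after seeing the data, and became 3 as deposited and after loess. Some of these test fewer probe sets, and otherwise the cause was not tested. With 1 array left out, the higher count was 2 to 4, the lower count 1 to 4, the adjusted count 0 to 0 and the median relative to all probe sets -0.230 to 0.0329. Signs turned for Klf1 as deposited (-0.122) and after loess (-0.0214), for Zfpm1 1451046_at after median centring (0.261), loess (0.0453) and averaging its probe sets (0.351), for Tfrc 1422967_a_at after averaging (-0.782), for Tfrc 1452661_at after median centring (0.210) and loess (7e-04), and for the 5′ Tfrc control after median centring (0.109) and with array weights (0.0264). Leaving out 1 array also turned the sign of Gata1 (-0.530 to 0.148), Klf1 (-0.0507 to 0.616), Zfpm1 1451046_at (-0.228 to 0.189), Ank1 1419421_at (-0.634 to 0.114), Tfrc 1422967_a_at (-0.302 to 0.507), Tfrc 1452661_at (-0.227 to 0.175) and the 5′ Tfrc control (-0.381 to 0.399). Of 165 values of single probe sets under the other alternatives, 155 kept their sign and side of the threshold. Over all probe sets, calls after adjustment were 21 as deposited, 6 without suffixed probe sets, 2 with 1 probe set a gene, and 1 each after loess and with trend and robust options. Of all calls at an unadjusted p under 0.05, 68.5% were higher in Lig4mut, against 39.7% as deposited, 77.7% after median centring and 49.3% after loess. The median of all probe sets was 0.27 after median centring, against 0.08.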
